A study of Mus musculus with 10 samples.

Results

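Transcript clusters to which the array's annotation attaches more than a single gene symbol are described here in mouse kidneys with and without Lkb1 (gene symbol Stk11) in the tubule. A transcript cluster is the array's unit for a gene or a transcribed stretch: the signals of many short probes are summarised into 1 expression value. Rows were taken when their identifier marked a transcript cluster and the platform annotation gave at least 2 different symbols. This rule, which uses no measured value, gave 2146 of 65770 transcript clusters, beside 30439 with a single symbol and 33185 with none. The 2146 rows carry 4103 different symbols, a median of 2 and at most 15 per row. Each row was kept apart. A row is named below by all its symbols joined with a slash, or by its first and last symbol and their number beyond 4. Where a row joins several genes, its value belongs to none of them alone. In 664 rows all symbols resolved to a single gene under several names.

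Whole kidneys of mice 5 weeks old were measured, 1 array per kidney. The 5 controls were littermates that carried the floxed Lkb1 allele (flox/+ or flox/flox) and no Cre. The 5 knockouts carried floxed Lkb1 and KspCre, in which Cre recombinase is driven from the Cdh16 promoter, active in tubule epithelium; cells of other kinds keep the gene. Only the knockouts carried Cre, so an effect of Cre and an effect of Lkb1 loss cannot be told apart. The titles call the groups WT and STK11_KD and the condition label speaks of a knockdown, whereas the protocols describe a Cre knockout; the strain is labelled C57Bl/6N, but the floxed mice were of mixed background by the protocols. In whole kidney, fewer cells of a type and less RNA per cell cannot be told apart. Nothing in the labels numbers litters or batches, so p-values measure the spread between these kidneys.

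Lkb1 is a protein kinase that switches on AMP-activated kinase and its relatives, and its loss in the distal tubule is known to be followed by inflammation and scarring of the kidney. Several symbols meet on a row in a few known ways: a gene may have an old and a current symbol, a microRNA or small nucleolar RNA may lie inside the transcript of its host gene, or a gene may have copies so alike that probes cannot separate them. A microRNA is cut from a longer primary transcript as a hairpin and then as a mature RNA of about the length of the sequences below. Whole-transcript arrays of this kind read the primary transcript or the hairpin region, so the mature microRNA itself was not measured.

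The sequences printed here are those of microRNAs named on rows that changed and those before the starts of near-identical gene copies on rows that changed together. No link between these sequences and the changes was tested. Mature microRNAs from RefSeq (GRCm38.p6) are printed 5′ to 3′ with the seed, bases 2 to 8, which pairs with target RNAs, in capitals. Mir223 lies at chrX:96242817-96242926 and is known from myeloid cells. Mir214 and Mir199a-2 lie inside the long non-coding RNA Dnm3os, at chr1:162217623-162225550. Mir8116 lies at chr5:137293780-137293876, and Mir7663 on chromosome 10. No seed of 7 bases was shared between these 9 mature RNAs.
mmu-miR-223-5p: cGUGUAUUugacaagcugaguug
mmu-miR-223-3p: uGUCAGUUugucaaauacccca
mmu-miR-214-5p: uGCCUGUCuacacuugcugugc
mmu-miR-214-3p: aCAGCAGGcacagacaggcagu
mmu-miR-199a-5p: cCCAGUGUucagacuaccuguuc
mmu-miR-199a-3p: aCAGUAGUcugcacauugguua
mmu-miR-8116: aAGGAUCCggggcuaguuggc
mmu-miR-7663-5p: gCUGCUUGgugaucauccacugu
mmu-miR-7663-3p: aGUGUGGAucauaaggagcucc

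Ccl21a, which encodes a chemokine that draws T cells and dendritic cells through the receptor Ccr7, has several copies on chromosome 4. The 250 bases before the start of Ccl21a (chr4:42773992-42774241, minus strand) and before that of its copy Gm13304 (chr4:42114537-42114786, plus strand) are printed from the RefSeq promoter table with the bases that differ in capitals. Over windows of 300 bases, which reach 50 bases past the start, Ccl21a and Gm13304 had 98.3% of aligned positions in common with 3 substitutions. The windows of Gm13304 and Gm10591 were the same in all 300 bases, and that of Ccl21d differed from Gm13304 at 1. The listed window of Ccl21b had 51.9% in common with that of Ccl21a.
Ccl21a: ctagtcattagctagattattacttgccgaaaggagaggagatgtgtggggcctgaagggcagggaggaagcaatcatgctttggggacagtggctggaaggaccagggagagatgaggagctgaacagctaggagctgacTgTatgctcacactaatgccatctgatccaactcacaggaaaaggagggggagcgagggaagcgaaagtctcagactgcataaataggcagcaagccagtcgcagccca
Gm13304: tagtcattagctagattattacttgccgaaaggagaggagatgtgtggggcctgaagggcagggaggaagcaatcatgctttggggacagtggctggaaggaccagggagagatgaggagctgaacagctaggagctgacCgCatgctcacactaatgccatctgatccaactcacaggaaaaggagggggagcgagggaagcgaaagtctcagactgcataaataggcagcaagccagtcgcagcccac

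The deposited values are on a log2 scale, so a difference of 1 is a doubling. Array medians over all transcript clusters were 5.31 to 5.40, and the arrays correlated with each other at 0.99 or more. The median of 5222 negative control probe sets was 5.10 to 5.37 per array, and a group mean under its own group's level of these is called dim; a dim value gives only an upper bound. Stk11 itself, a row with a single symbol, read 9.43, 9.40, 9.48, 9.46 and 9.40 in the controls and 9.12, 9.21, 9.07, 9.21 and 9.31 in the knockouts. Its difference of -0.25 (SE 0.05; limma adjusted p = 0.0155; exact permutation p = 0.00794, two-sided) left 84.1% of the control level, with no overlap between groups. When every array was centred on its own median, the difference was -0.21 with an adjusted p of 0.0698. Single-symbol markers of other cell types moved with the groups: 14 of 14 macrophage, 7 of 8 fibroblast, 3 of 7 T and NK cell and 3 of 5 urothelium markers were higher in knockouts. Of tubule markers, 4 of 6 intercalated cell, 3 of 6 proximal tubule and 2 of 4 distal convoluted tubule markers were lower; 5 of 6 thick ascending limb markers were lower and the other, Cldn16, was higher by 0.45; and principal cell markers gave 2 higher and 1 lower of 6. None of 4 B cell, 5 neutrophil, 6 endothelium or 4 podocyte markers passed. The mean level of the macrophage markers was 6.58 to 6.83 in controls and 7.23 to 8.06 in knockouts, and that of the fibroblast markers 7.75 to 8.10 and 8.67 to 9.40. The part of such cells in the results below was not tested.

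Of the 2146 rows with several symbols, 85 rose and 24 fell in knockouts by limma with Benjamini-Hochberg adjustment over all 65770 transcript clusters at a threshold of 0.05. That is 5.08% called, against 3.86% of all transcript clusters, 5.61% of those with a single symbol and 2.17% of those without any. By direction, 3.96% rose and 1.12% fell, against 2.54% and 1.32% of all. Differences ran from -0.77 to 1.60 with a median of -0.02, and the median over all transcript clusters was -0.04. Groups did not overlap in 106 rows that were higher and 55 that were lower, against 3.13% and 2.85% of all transcript clusters, or 5.98% in either direction. Of the 2146 rows, 1270 were above the negative control median on average. Some rows repeat each other: 203 share their 10 values with another row, so that 2013 distinct sets of values remain and the 85 increases hold 79. Among rows with a mean level of at least 8, 13.0% of 423 were called, against 11.3% of all 9628 such transcript clusters.

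The counts changed when a single kidney was left out, which by itself also lowers the power. The runs listed here had lower counts, and the range over all kidneys is given at the end. The increases numbered 51 without control 3, 55 without knockout 1, 46 without knockout 2 and 53 without knockout 3. The decreases numbered 13 without control 1, 7 without control 3, 13 without control 5, 14 without knockout 1, 8 without knockout 2, 9 without knockout 3 and 14 without knockout 4. The split of calls, 78.0% higher, became 90.0% when arrays were centred on their medians, with 99 increases and 11 decreases.

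**Figure D1:**
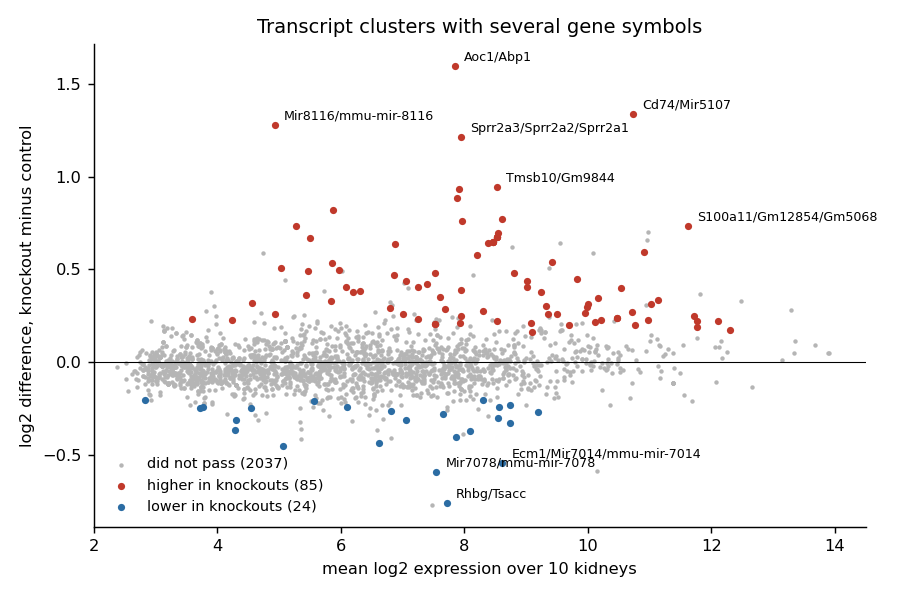
Each point is a transcript cluster with several gene symbols, with its mean log2 expression over 10 kidneys on the x axis and the log2 difference, knockout minus control, on the y axis. The 85 rows that were higher (red) and the 24 that were lower (blue) are drawn larger; the 2037 others are grey.

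The largest increase was in Aoc1/Abp1. The row, with both symbols of the diamine oxidase that breaks down histamine and putrescine (chr6:48895255-48909188), read 7.06, 7.04, 7.13, 7.08 and 6.91 in the controls and 8.74, 8.89, 9.14, 8.33 and 8.09 in the knockouts. Every knockout lay well above the highest control. The difference was 1.60 (SE 0.16; limma adjusted p = 3.1e-04), or 3.02-fold, with a 95% interval of 1.25 to 1.94.

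Cd74/Mir5107 joins the invariant chain of MHC class II, which guides peptide loading in antigen-presenting cells, with a microRNA gene that lies inside it. It read 10.70, 10.08, 9.72, 9.61 and 10.19 in the controls and 11.71, 11.54, 11.70, 11.05 and 10.99 in the knockouts, without overlap. The difference was 1.34 (SE 0.20; limma adjusted p = 0.0041). The array gives no separate value for the microRNA.

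Sprr2a3/Sprr2a2/Sprr2a1, copies of a small proline-rich protein of the epithelial barrier on chromosome 3, read 7.20, 7.50, 7.41, 7.89 and 6.73 in the controls and 8.28, 8.77, 8.05, 8.29 and 9.40 in the knockouts. The spread was wide in both groups, and the lowest knockout lay just above the highest control. The difference was 1.21 (SE 0.25; limma adjusted p = 0.0184). The promoter windows of Sprr2a1 and Sprr2a2 were the same in all 300 bases, and that of Sprr2a3 had 82.9% in common with them. A second row, Sprr2a2/Sprr2a1, differed by 0.49 (SE 0.13) with a limma adjusted p of 0.0576.

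C1s is the serine protease of the classical complement pathway, and mice have C1s1 and C1s2 side by side on chromosome 6. C1s1/C1s read 7.48, 7.52, 7.53, 7.48 and 7.21 in the controls and 8.54, 8.62, 8.67, 8.14 and 7.93 in the knockouts. C1s2/Gm5077 read 7.49, 7.50, 7.50, 7.46 and 7.25 in the controls and 8.46, 8.59, 8.58, 8.13 and 7.88 in the knockouts. The values of both rows nearly coincide kidney by kidney, so signal shared between these like genes cannot be split and the rows are not separate results. Their differences were 0.94 (SE 0.13; limma adjusted p = 0.0027) and 0.89 (SE 0.12; limma adjusted p = 0.0025). Cfhr2/Gm16332, named for a protein related to complement factor H, was higher by 0.76 (SE 0.16; limma adjusted p = 0.0183), with 1 knockout at 7.71 inside the control range.

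Tmsb10/Gm9844 joins thymosin beta 10, which binds actin monomers, with a pseudogene on another chromosome. It read 7.85, 8.0, 7.97, 8.24 and 8.22 in the controls and 8.97, 9.15, 9.22, 8.94 and 8.73 in the knockouts, a difference of 0.95 (SE 0.10; limma adjusted p = 4.2e-04). The calcium-binding protein S100a11 shares a row with the predicted genes Gm12854 and Gm5068: S100a11/Gm12854/Gm5068 read 11.01, 11.29, 11.28, 11.40 and 11.32 in the controls and 12.14, 12.13, 12.13, 11.97 and 11.61 in the knockouts. It was the brightest of the largest increases, with a difference of 0.74 (SE 0.10; limma adjusted p = 0.0023). Some other rows of cytoskeleton genes, chosen after their values were seen, rose less. Arpc1b/Gm5637, for a subunit of the Arp2/3 complex that branches actin filaments, rose by 0.48 (SE 0.06), Myh9/Gm22107, for non-muscle myosin, by 0.23 (SE 0.05), and Actg1/Mir6935/mmu-mir-6935, for gamma actin, by 0.19 (SE 0.04).

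Slc13a2os/Gm11194, an RNA transcribed opposite the citrate transporter gene Slc13a2, rose by 0.82 (SE 0.16; limma adjusted p = 0.0169). Its controls lay between 5.15 and 5.74 and its knockouts between 5.75 and 6.62, so that the groups nearly touched. Pappa2/1600012P17Rik, for a protease of insulin-like growth factor binding proteins, read 4.82 to 5.01 in the controls, which is dim, and 5.47 to 5.79 in the knockouts. It was at least 1.33-fold higher in knockouts (limma adjusted p = 1.5e-04).

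**Figure D2:**
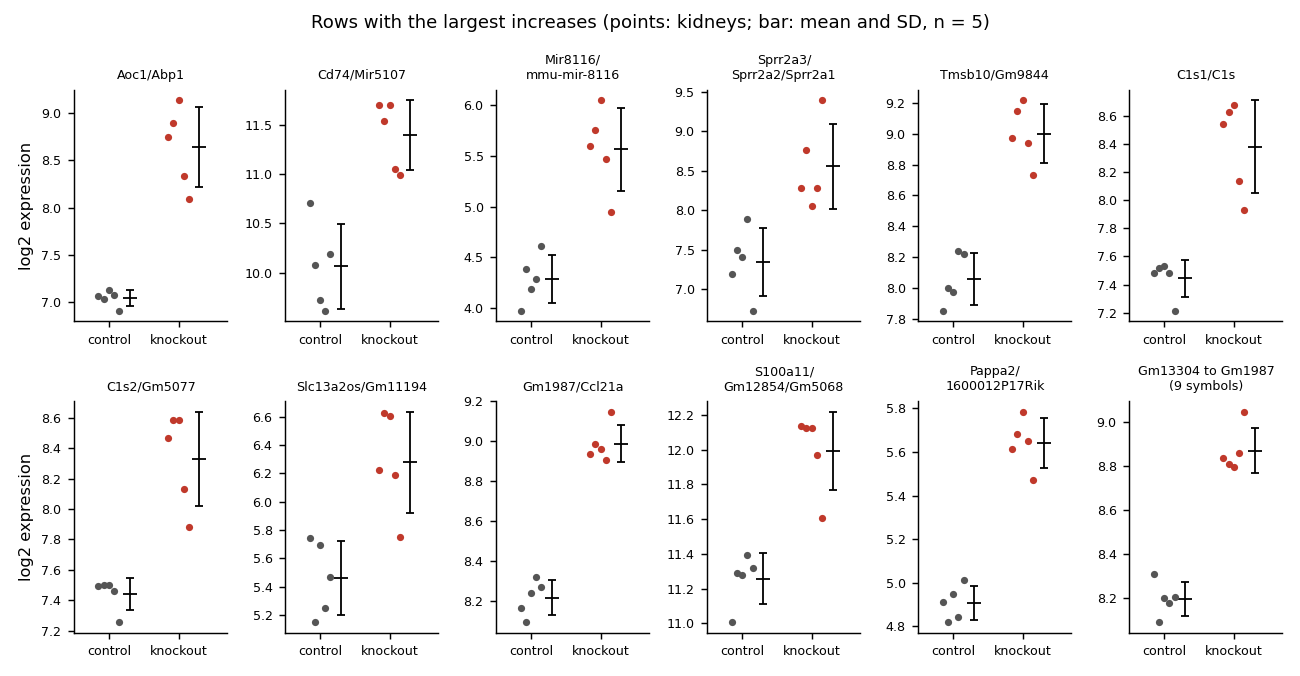
Log2 expression in each of 5 control (grey) and 5 knockout (red) kidneys for the 12 rows with the largest increases among those past the threshold whose groups did not overlap; bars give the mean and SD, and each panel has its own y axis. In Aoc1/Abp1 the controls sit between 6.91 and 7.13 and the knockouts between 8.09 and 9.14.

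All 9 rows that carry a Ccl21 symbol or a copy of it rose, against 2.54% of all transcript clusters; they hold 5 distinct sets of values, and their probes read near-identical genes, so they are not independent. Gm1987/Ccl21a read 8.16, 8.09, 8.24, 8.32 and 8.27 in the controls and 8.94, 8.98, 8.96, 8.91 and 9.15 in the knockouts. The spread within groups was small beside the difference of 0.77 (SE 0.06; limma adjusted p = 4.9e-05), or 1.71-fold. Gm13304 to Gm1987 (9 symbols) read 8.31, 8.09, 8.20, 8.18 and 8.21 in the controls and 8.84, 8.81, 8.79, 8.86 and 9.05 in the knockouts, and Gm13304 to Ccl21c (7 symbols) held the same values. Differences over the 9 rows ran from 0.64 to 0.77, and all 9 also passed with quantile normalisation and with centred arrays. The other chemokines with several copies on chromosome 4 gave no call. The 5 Ccl19 rows, for the other ligand of Ccr7, had differences of 0.12 to 0.19, with 4 of 5 at an unadjusted p under 0.05, and the 5 Ccl27 rows -0.26 to 0.16, with 1 of 5. Whether Ccl21 rows differ in this from Ccl19 rows was not tested.

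Rows of genes known from myeloid cells and other leukocytes were among the increases; this group was chosen after its values were seen. Mir223/F630028O10Rik joins the miR-223 gene with the transcript around it. It read 5.32, 5.23, 4.98, 4.99 and 5.33 in the controls, which is dim on average, and 6.00, 5.98, 5.87, 5.92 and 5.44 in the knockouts. It was at least 1.48-fold higher (measured difference 0.67, SE 0.11; limma adjusted p = 0.0065), and knockout 5 lay close to the controls. P2rx7/mmu-mir-8115, for an ATP-gated channel of leukocytes, read 6.63, 6.57, 6.44, 6.60 and 6.55 in the controls and 7.24, 7.37, 7.45, 7.05 and 6.86 in the knockouts. Its difference was 0.64 (SE 0.10; limma adjusted p = 0.0047). Spi1/Sfpi1, both symbols of the myeloid transcription factor PU.1, rose from 6.83 ± 0.08 (SD, n = 5) to 7.27 ± 0.13 (SD, n = 5; limma adjusted p = 0.0042).

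Fyb/Gm7666, for an adaptor protein of T cells and myeloid cells, rose by 0.53 (SE 0.09). All 3 rows of paired immunoglobulin-like receptors, which bind MHC class I on leukocytes, rose, against 2.54% of all transcript clusters, and since 2 of them name Pira1 and Pira2 they are not independent: Pira1/Pira2 by 0.49 (SE 0.10), Gm14548/Pira2/Pira1 by 0.41 (SE 0.10) and Gm15448/Pirb by 0.33 (SE 0.08). Gm11710/Gm11711/Cd300lh rose by 0.42 (SE 0.09), and Sp140/Gm2427 by 0.38 (SE 0.08). Evi2a/Evi2b/Evi2a-evi2b/Gm21975 was dim in controls, with a measured difference of 0.49 (SE 0.12; limma adjusted p = 0.0437). Its knockouts 4 and 5, at 5.37 and 5.41, lay near the negative control level, so no fold is given. Sirpb1a/Sirpb1b, for receptors of myeloid cells, differed by 0.44 (SE 0.13) and did not pass (limma adjusted p = 0.0772). The 51 rows of immunoglobulin and T cell receptor segments gave 0 increases and 1 decrease by limma, with 6 at an unadjusted p under 0.05. The rows Ighm/Ighv2-6, Ighm/Ighv2-7, Ighm/Ighg3 and Ighm/Igkv8-27 had differences of -0.05, 0.01, -0.05 and -0.08. The single-symbol row of Ighm differed by 0.45 and did not pass (limma adjusted p = 0.139). Igkv4-74/Igk differed by 0.59 (SE 0.24; limma adjusted p = 0.207), with knockout 1 at 6.10 far above the other knockouts, and was dim in both groups on average.

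Rows of genes known from stromal cells, also chosen after their values were seen, are given next. Dnm3os/Mir214/Mir199a-2, the non-coding host of 2 microRNA genes known from mesenchymal cells, read 4.80, 4.75, 4.73, 4.73 and 4.82 in the controls and 5.26, 5.51, 5.45, 5.18 and 4.98 in the knockouts. The controls were dim, and knockout 5, at 4.98, lay under the negative control level too, so no fold is given. The measured difference was 0.51 (SE 0.09, limma adjusted p = 0.0087). Gucy1a3/Mir7010/mmu-mir-7010, for a subunit of the receptor of nitric oxide, rose by 0.58 (SE 0.10), Adam12/5830403F22Rik, for a metalloprotease, by 0.47 (SE 0.09), and Zeb2/Mir5129, for a transcription factor of mesenchymal and myeloid cells, by 0.35 (SE 0.07). In Adam12/5830403F22Rik, knockout 5 at 6.736 lay inside the control range, under control 3 at 6.745. Pdgfra/Mir7025/mmu-mir-7025, for a growth factor receptor of fibroblasts, read 9.40, 9.47, 9.36, 9.26 and 8.69 in the controls and 9.99, 10.15, 10.17, 9.82 and 9.26 in the knockouts. Its difference of 0.64 (SE 0.18) did not pass (limma adjusted p = 0.0709), and the groups overlapped.

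Among the 24 decreases, Rhbg/Tsacc was the largest. Rhbg encodes an ammonia transporter of the basolateral membrane in the collecting duct, and Tsacc, a neighbour on chromosome 3, a chaperone partner known from testis. The row read 8.21, 8.05, 7.97, 8.12 and 8.12 in the controls and 7.29, 7.34, 7.09, 7.37 and 7.61 in the knockouts, without overlap. The difference was -0.76 (SE 0.08; limma adjusted p = 5.7e-04), so controls were 1.69-fold above knockouts. Intercalated cell markers moved the same way, with a mean level of 8.71 to 8.94 in controls and 7.95 to 8.40 in knockouts.

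Ecm1/Mir7014/mmu-mir-7014, for a secreted matrix protein, read 8.81, 9.07, 9.05, 8.80 and 8.70 in the controls and 8.34, 8.52, 8.10, 8.53 and 8.23 in the knockouts, a difference of -0.54 (SE 0.10; limma adjusted p = 0.0092). Egfbp2/Klk1b26, both symbols of a glandular kallikrein, fell from 8.06 ± 0.09 to 7.66 ± 0.16 (SD, n = 5 each; limma adjusted p = 0.0121). Nbeal2/Mir8107/mmu-mir-8107, for a protein needed for platelet granules, fell from 8.27 ± 0.10 to 7.90 ± 0.08 (SD, n = 5 each; limma adjusted p = 0.0050). Smim24/2210404O07Rik and Fam210a/Mir7219/mmu-mir-7219 fell by 0.30 (SE 0.07) and 0.27 (SE 0.06). Esrra/Mir6990/mmu-mir-6990, for a nuclear receptor of energy metabolism, fell by 0.24 (SE 0.05), and Dnah7b/Dnah7c, for heavy chains of ciliary dynein, by 0.43 (SE 0.09), with 1 knockout at 6.74 inside the control range.

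Several calls in both directions rest on values near the noise. The increases Sirpb1a/Sirpb1c, Fgf12/B230343J05Rik, Vmn1r94/Vmn1r142 and Ifi202b/Ifi205/LOC100044068 were dim in both groups. Among the decreases, Mir344h-1/Gm24425, Mir7233/4921513H07Rik and Trav6-3/Trav6d-3 were dim in both groups, with group means of 3.59 to 4.66, so no fold is given. The same holds for Mir6386/mmu-mir-6386, Gm5072/Gm8914/Gm5071 and Olfr190/Olfr192. The 74 rows of odorant and vomeronasal receptors, which kidneys hardly express, gave 1 increase and 1 decrease, and 4 of them were above the negative control median.

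**Figure D3:**
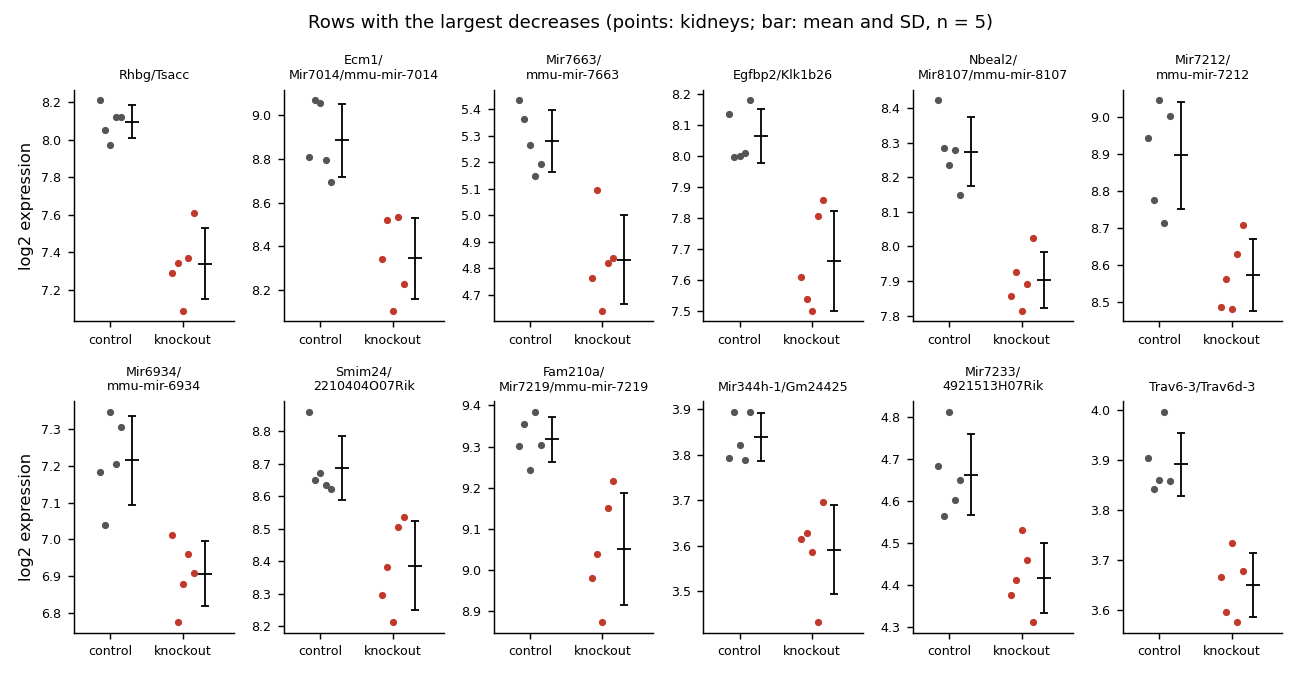
Log2 expression in each of 5 control (grey) and 5 knockout (red) kidneys for the 12 rows with the largest decreases among those past the threshold whose groups did not overlap; bars give the mean and SD, and each panel has its own y axis. Rhbg/Tsacc has the largest decrease, and Mir344h-1/Gm24425, Mir7233/4921513H07Rik and Trav6-3/Trav6d-3 are dim in both groups.

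Rows were sorted by their symbols into 8 kinds that exclude each other. Of 312 rows with microRNA symbols only, 1 rose and 6 fell (2.24% called), with a median difference of -0.06. Of 228 rows that join a microRNA gene with another gene, 13 rose and 9 fell (9.65%). Small nucleolar RNA genes gave 3 increases in 35 rows, and antisense genes 1 increase and 1 decrease in 135. Rows whose symbols share a stem, such as gene families, gave 32 increases and 3 decreases in 344 (10.2%). A named gene joined with predicted gene models gave 28 increases and 1 decrease in 472 (6.14%). Predicted gene models alone gave 2 increases and 1 decrease in 406 (0.739%), and differently named genes 5 increases and 3 decreases in 214 (3.74%). These shares stand beside the 3.86% called of all transcript clusters. Repeated rows lift some of them: the 35 calls in rows with a shared stem hold 29 distinct sets of values of 325. Of the 228 rows that join a microRNA gene with another gene, 20 resolve to a single gene under several names, 17 join genes apart on a chromosome and 10 genes on different chromosomes, so not all of them pair a microRNA with its host. The kinds also differed in brightness, with a median control level of 4.22 for predicted models alone and 7.67 for a microRNA gene with another gene.

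By position in RefSeq, 196 rows join genes on different chromosomes, and 29 of these rose and 0 fell (14.8% called). They were bright, with a median control level of 8.57, and their median difference was 0.06. With quantile normalisation 19 rose and 1 fell. Of all transcript clusters 2.54% rose, and of those with a mean level of at least 8, 8.64% rose. Most of the 29 rows carry a ribosomal protein symbol and recur among the ribosomal rows below, so the results are not separate. Of 884 rows that join genes apart on the same chromosome, 27 rose and 6 fell (3.73%), and of 390 rows of overlapping genes 19 rose and 8 fell (6.92%). In 664 rows all symbols resolved to a single gene under several names, and 10 of these rose and 10 fell (3.01%); Aoc1/Abp1 and Spi1/Sfpi1 are of this kind. Rows with 2, with 3 or 4 and with at least 5 symbols were called in 4.28% of 1587, 6.87% of 364 and 8.21% of 195. Of all transcript clusters 3.86% were called. All 16 calls in the last group were increases, and they hold 12 distinct sets of values. They are rows of Ccl21, ribosomal protein and histone genes and their copies, which are described apart.

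**Figure D4:**
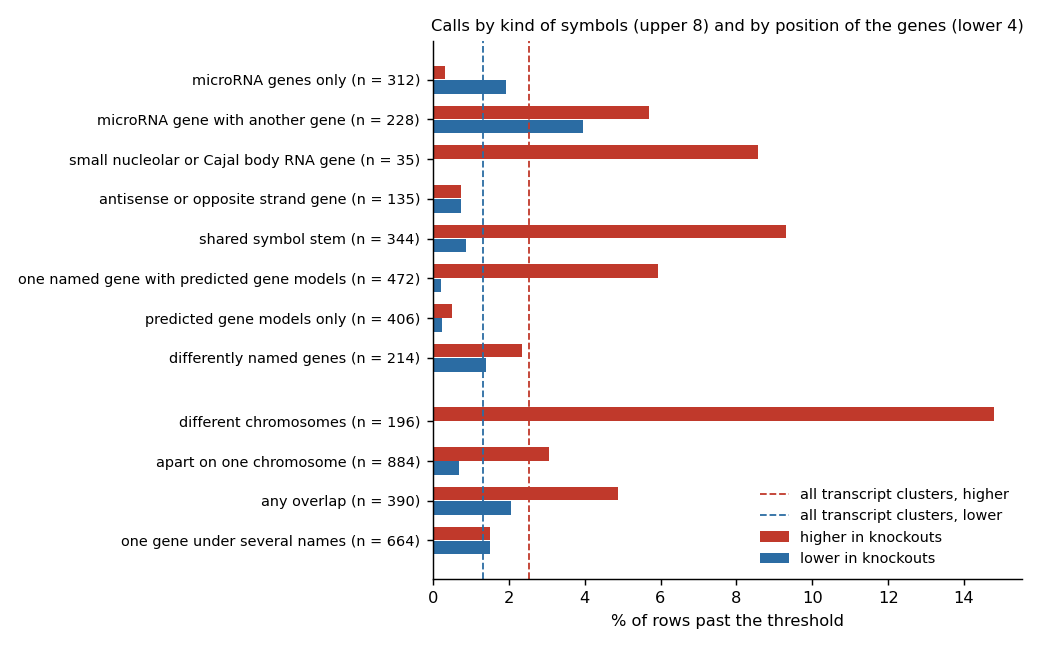
Bars give the percent of rows past the threshold, higher (red) and lower (blue) in knockouts, for 8 kinds of symbols and 4 arrangements of the genes, with the number of rows beside each name; dashed lines give the same over all 65770 transcript clusters. Genes on different chromosomes reach 14.8% higher, and predicted gene models alone stay under both lines.

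Ribosomal protein genes, which have many processed copies across the genome, stood on 24 of the 85 rows that rose; this group was chosen after its values were seen. Of 59 rows with a ribosomal protein symbol, 24 rose and 0 fell, and 57 of 59 differences were above 0, with a median of 0.17. Among single-symbol rows of ribosomal proteins, 119 of 249 rose and 0 fell, with a median of 0.22. These rows are bright, and among all transcript clusters with a mean level of at least 8, 8.64% rose. Rpl12/Gm9396, for a protein of the large subunit, read 10.39, 10.62, 10.55, 10.77 and 10.70 in the controls and 11.15, 11.35, 11.33, 11.10 and 11.06 in the knockouts. Its difference of 0.59 (SE 0.08; limma adjusted p = 0.0018) was the largest of the 59.

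The other increases of ribosomal rows were between 0.16 for Rpl13a to Mir5121 (5 symbols) and 0.54 for a row of Rps27rt/Rps27. Rows repeat the same genes here. Rps12 and its copies, for a protein of the small subunit, stand on rows such as Rps12 to Rps12l1 (11 symbols), which rose by 0.21 (SE 0.05), and Rps12-ps11/Rps12-ps13 and Rps12-ps15/Rps12-ps13, which share their values and rose by 0.24 (SE 0.05). Copies of Rpl23a stand on Gm3362 to Rpl23a (8 symbols), higher by 0.30 (SE 0.05), and Gm8290 to Gm6177 (6 symbols), higher by 0.31 (SE 0.06). The count of increases was 16 with quantile normalisation and 27 with centred arrays, and no ribosomal row fell under these settings.

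Small nucleolar RNAs, which guide the chemical modification of ribosomal RNA, lie in introns of such host genes. Rpl12/Snora65 rose from 7.55 ± 0.08 to 7.83 ± 0.07 (SD, n = 5 each; limma adjusted p = 0.0115) and 1500012F01Rik/Snord12 from 7.13 ± 0.10 to 7.36 ± 0.04 (SD, n = 5 each; limma adjusted p = 0.0326). Gas5/Snord47/Mir5117, named for a non-coding host RNA, rose by 0.26 (SE 0.06). Histone genes, which are packed in near-identical clusters, gave 4 increases and 0 decreases in 37 rows (10.8% called), against 3.86% of all transcript clusters called and 2.54% higher. Hist1h3e to Hist2h3c1 (8 symbols) was the highest of these at 0.41 (SE 0.06; limma adjusted p = 0.0037).

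Most microRNA genes on these rows lie within another gene, which allows the row to be set beside that of its host. A host here is any gene that spans the microRNA gene, whatever its strand. Mir6381/mmu-mir-6381 lies on the strand opposite to Gbp2, a called host, and for some pairs the strand is not known. Such a microRNA may not be part of that gene's transcript. Of the 312 microRNA-only rows, 230 lie within a gene that has a single-symbol row, which gives 244 pairs. The host was called in 23 pairs, and in 1 of them the microRNA row was called too. In 11 of the 23 the microRNA row was dim in both groups, so that a change could hardly be read. In the 12 others, the difference of the microRNA row had the sign of its host's in 4. No difference between a row and its host was tested. The row called with its host is Mir8116/mmu-mir-8116, within Ache, the gene of acetylcholinesterase. It read 3.97, 4.38, 4.19, 4.28 and 4.61 in the controls, which is dim, and 5.60, 5.76, 6.05, 5.47 and 4.95 in the knockouts. Knockout 5, at 4.95, lay under the negative control level too, so no fold is given. The measured difference was 1.28 (SE 0.17, limma adjusted p = 0.0022), and the row of Ache rose by 0.48 (SE 0.07, limma adjusted p = 0.0022).

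The other pairs held both cases. Cd82, a membrane protein, fell by 0.23 (SE 0.05), and Mir7001/mmu-mir-7001 within it had a difference of -0.10 (limma adjusted p = 0.515). Mir7020/mmu-mir-7020 fell by 0.26 (SE 0.07) in Aldh4a1, an enzyme of proline breakdown, whose difference was -0.22 (limma adjusted p = 0.130). Man1c1, a mannosidase of the Golgi, rose by 0.79 (SE 0.13), whereas Mir6403/mmu-mir-6403 within it had a difference of -0.08 (limma adjusted p = 0.603). Slc9a9, a sodium-proton exchanger, rose by 0.68 (SE 0.08), but Mir7656/mmu-mir-7656 was dim in both groups, with a control mean of 3.08. Csf1r, the receptor that macrophages depend on, rose by 0.36 (SE 0.07), with -0.41 (limma adjusted p = 0.129) for Mir6983/mmu-mir-6983, which was dim in the knockouts. Whether Csf1r and this microRNA gene share a strand is not known here. With the host not called, Mir7078/mmu-mir-7078 fell by 0.59 (SE 0.14; limma adjusted p = 0.0327) in a host, Cmip, with -0.10 (limma adjusted p = 0.336), though knockout 4 at 7.46 lay within the control range. Mir7663/mmu-mir-7663 read 5.43, 5.36, 5.26, 5.15 and 5.19 in the controls and 4.76, 5.10, 4.64, 4.82 and 4.84 in the knockouts, where it was dim. The measured difference was -0.45 (SE 0.09, limma adjusted p = 0.0128). Most of its controls also lay near the negative control level, so no fold is given. Its host Tbpl1 had a difference of -0.0048 (SE 0.04). Mir7212/mmu-mir-7212 and Mir6934/mmu-mir-6934 fell by 0.32 (SE 0.07) and 0.31 (SE 0.07). The differences of rows and hosts correlated at 0.164 over the 244 pairs, which share arrays and, for some, hosts.

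The annotation gives many of these genes no single-symbol row. The rows resolve to 3267 genes, of which 489 also have a single-symbol row and 2778 do not. Of 222 genes on called rows, 172 have no single-symbol row, though some of them stand on several of the joint rows. In 72 called rows no gene has a single-symbol row, Aoc1/Abp1 and Cd74/Mir5107 among them. Where both exist, 1052 pairs of rows can be set side by side. The several-symbol row was called in 75 pairs, and the single-symbol row of the same gene was called as well, in the same direction, in 55 of these. In 39 pairs the single-symbol row alone was called. The differences correlated at 0.721 over the pairs, many of which share a row or read like sequences.

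The 3 widest gaps between called joint rows and single-symbol rows were in these genes. P2rx7/mmu-mir-8115 differed by 0.64, and the row named Mir8115 alone by -0.02 (SE 0.26; limma adjusted p = 0.976). The identifier of that second row places it on chromosome 11, whereas RefSeq has Mir8115 on chromosome 5 within P2rx7. S100a11/Gm12854/Gm5068 rose by 0.74, the row of Gm12854 by 0.28 (limma adjusted p = 0.0183), and the row of Gm5068 differed by 0.18 (limma adjusted p = 0.322). Tmsb10/Gm9844 rose by 0.95, and the row of Tmsb10 alone by 0.46 (SE 0.09; limma adjusted p = 0.0135). The identifier of the joint row places it on chromosome 7, where Gm9844 lies. The differences between rows of a pair were not tested.

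**Figure D5:**
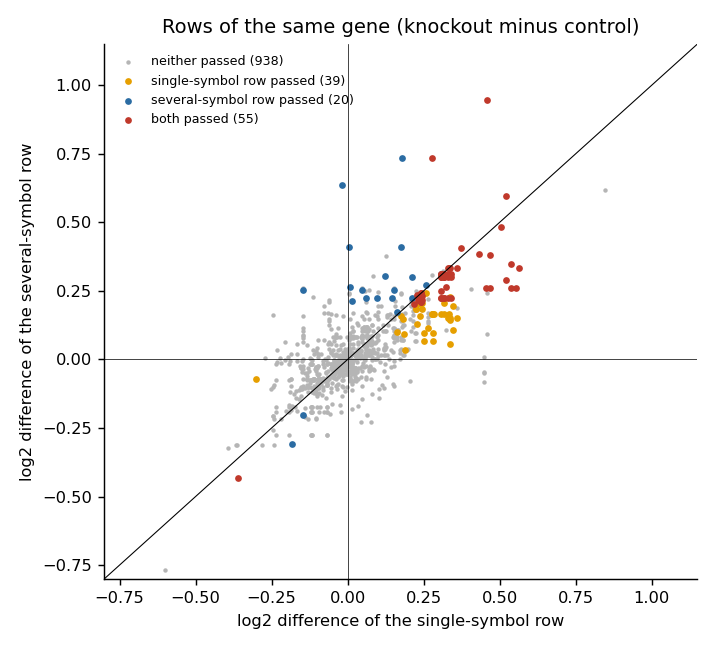
Each of 1052 points pairs a several-symbol row (log2 difference, y axis) with a single-symbol row of a gene it names (log2 difference, x axis); colours show which of them passed the threshold and the diagonal marks equal differences. The 55 pairs in which both passed lie on the same side of 0 on both axes, and Tmsb10/Gm9844 is the highest of them at 0.95.

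Some large differences did not pass. These rows were chosen after their values were seen, as the 15 that did not pass with a size of at least 0.4. Gm906/Gm8700 read lower by 0.77 (SE 0.21; limma adjusted p = 0.0691), and Slc5a3/Mrps6, which joins the myo-inositol transporter of the kidney medulla with a mitochondrial ribosomal protein, by 0.58 (SE 0.16; limma adjusted p = 0.0727). The latter lay between 9.97 and 10.93 in the controls and between 9.46 and 10.18 in the knockouts, with overlap. Serpina1a/Serpina1d, for alpha-1 antitrypsin, differed by 0.62 (SE 0.20; limma adjusted p = 0.125).

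Globin rows, which carry the haemoglobin RNA of red blood cells left in the tissue, varied widely within groups. The Hba-a2/Hba-a1 rows differed by 0.66 (SE 0.23; limma adjusted p = 0.145) and 0.70 (SE 0.25; limma adjusted p = 0.156). Hbb-bt/Hbb-b2/Hbb-bs/Hbb-b1 read 9.21, 10.62, 9.61, 9.90 and 9.57 in the controls and 9.99, 10.47, 10.50, 10.81 and 10.07 in the knockouts, with overlap and a limma adjusted p of 0.187. The row with the most symbols first in order, Gm21425 to Gm20737 (15 symbols), is on chromosome Y, was dim in both groups and did not pass (limma adjusted p = 0.145). None of 133 rows placed on chromosome Y passed, with 10 at an unadjusted p under 0.05, and 1 was above the negative control median. The 31 Ipw rows, for a non-coding RNA of the Prader-Willi region, hold 3 distinct sets of values, none above the negative control median, and gave 0 calls by limma, with 0 at an unadjusted p under 0.05.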

How the data were processed

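The authors made the deposited log2 values with RMA (robust multi-array average) on the mm10 build, per the submitters' processing notes; that the scale is log2 was taken from the range of the values. RMA summarises all probes of a transcript cluster, so exons that remain after a deletion are averaged with those removed. Versions of the authors' software are not given in the sources. Total RNA, 500 ng per array, was used, per the labels' protocols; the number of arrays limits the precision.

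All 65770 transcript clusters of 10 kidneys, 5 a group, were fitted without a covariate (R 4.3.3; limma 3.58.1; lmFit and trended eBayes; two-sided tests), with Benjamini-Hochberg adjustment over all of them and a threshold of 0.05. The labels give no batch. Symbols came from the platform annotation and positions and sequences from RefSeq GRCm38.p6, matched by symbol, synonym or Entrez identifier. The text names the 12 largest increases and 12 largest decreases past the threshold without overlap, up to 3 rows per kind, the 3 widest pairs, the row with the most symbols, rows with a cell type marker, and rows said to be chosen after their values were seen. The members and lists were chosen with earlier results of these data known. Where a group was dim, values of both groups under their array's negative control median were raised to it before the fold was taken. Such a fold is a point value, and the spread between kidneys is not in it. None is given for Dnm3os/Mir214/Mir199a-2, Evi2a/Evi2b/Evi2a-evi2b/Gm21975, Mir8116/mmu-mir-8116 or Mir7663/mmu-mir-7663, where the brighter group also held values under or near that median. Alternatives were other scalings, a filter on dim rows, no trend, array weights, the replicate block, rows with a symbol only, updated symbols, repeated rows counted once, and leaving out each kidney.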

Additional observations from a re-analysis of the deposited data

Results flagged for a closer look

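In the control and knockout groups of the 43 rows named by rule, 7 groups of 5 held a kidney far from the others. The gap to its neighbour was over 0.71 of the group's range, and chance alone marks about 1 in 20 groups. Not all of these are separate cases, since the values of the C1s rows nearly coincide. Control 5 read 7.21 for C1s1/C1s and 7.25 for C1s2/Gm5077, below the other controls, and 8.69 for Pdgfra/Mir7025/mmu-mir-7025. Knockout 5 read 9.05 for Gm13304 to Gm1987 (9 symbols) and for Gm13304 to Ccl21c (7 symbols), whose values are the same, above the other knockouts. It read 5.44 for Mir223/F630028O10Rik, below the other knockouts. Control 1 read 8.86 for Smim24/2210404O07Rik, above the other controls.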

How the results depend on the processing

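Of 35 named rows past the threshold, 21 passed under every alternative run, 14 lost the call under at least 1, and 0 turned direction. Increases numbered 73 to 105 over the alternatives that kept all kidneys (85 as reported) and 46 to 94 when a kidney was left out. Decreases (24 as reported) numbered 11 with centred arrays, 45 when only rows with a symbol were fitted, 14 when rows left with a single gene after updating symbols were dropped, and 7 to 34 when a kidney was left out. Stk11 was at -0.21 with centred arrays (limma adjusted p = 0.0698). Sprr2a3/Sprr2a2/Sprr2a1 lost its call under 2 alternatives (highest adjusted p = 0.0527). Centring moved the median of all transcript clusters from -0.04 to 0.00. With a kidney left out, the differences near 0 of Ighm/Ighv2-6 (-0.12 to 0.027) and Ighm/Ighv2-7 (-0.063 to 0.081), which never passed, changed sign. With the replicate number as a block, 80 rows rose and 24 fell, of which 71 and 17 were among those reported; 19 ribosomal and all 9 Ccl21 rows rose. Under it Pdgfra/Mir7025/mmu-mir-7025 passed (0.64, limma adjusted p = 0.0011), and 8 named rows lost their call, Sprr2a3/Sprr2a2/Sprr2a1 (0.0506) among them. The labels do not say what the numbers mark. Deviations of same-numbered samples correlated at 0.21, 0.33, 0.05, -0.11 and 0.14, not all above 0.1. Of 10 samples, 7 correlated best with their own number out of the 5 of the other group, more than random matching would give on average. Whether the numbers pair the kidneys is not settled. Counting repeated rows once (79 increases, 24 decreases) was added after the data were seen. The causes were not tested.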
